A study of Homo sapiens with 12 samples.

Results

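The comparison described here set 10 wells of purified HEK293T total RNA against 10 wells of HEK293T lysate, all profiled by LAST-seq, which makes 2 of the 12 libraries of the series. HEK293T is a human embryonic kidney line that carries the SV40 large T antigen. The total RNA wells each received 15 pg of RNA, which had been extracted on a column with a DNase step, and their label names no spike-in mix. The lysate wells received cell lysate with the A60 spike-in mix, a set of synthetic transcripts with a long poly-A tail. The labels name no genotype or treatment for either input, both were pools without cell-to-cell differences, and the 10 wells of an input were barcoded and then pooled into a single library. Each input is therefore 1 library, so the SD over wells describes aliquots of 1 preparation and no p-value is given for a difference between inputs. The labels do not say whether both inputs came from the same culture. Culture, extraction, spike-in mix and library cannot be told apart from the input.

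LAST-seq hybridises a poly-T primer carrying a promoter to the RNA and amplifies the RNA itself by in vitro transcription. RNA that ends in a poly-A tail, or that holds an internal stretch of A, can therefore enter the library. A UMI is a random tag that counts 1 captured RNA molecule. Crude lysate delivers all RNA of the opened cells to the primer, whereas a silica column binds RNA after the proteins have been denatured and recovers short RNA less completely.

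The total RNA wells held 86546 to 130568 UMIs on genes and the lysate wells held 62816 to 92944, 1108884 and 798047 in all. All 10 well barcodes were shared by the 2 libraries and by both LAST-seq libraries of single cells. Spike-in rows, 2.83% of UMIs per well in total RNA and 0.125% in lysate, were removed. UMIs were then scaled to 1000000 per well, and a level below is this value, a count per 1000000 (CPM). Of the markers examined for the line, VIM had 397 UMIs in total RNA and 223 in lysate, NEFL had 61 and 8, NEFM had 21 and 25, KRT8 had 7 and 0, and KRT18 had 6 and 8. LHX1 had 1 UMI, in lysate, and PAX2 was at 0 in both. Markers of blood, liver, fibroblasts and endothelium had 2 UMIs in total RNA and 4 in lysate over 11 genes.

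The immediate-early genes FOS, FOSB, JUN and EGR1 were far lower in purified RNA than in lysate. The mRNAs of cytosolic ribosomal proteins and the mitochondrial rRNAs were lower as well. METTL7B, FAM107A and CARF were high in purified RNA and nearly absent from lysate. GC-rich mRNAs were relatively higher in purified RNA, while the median difference of genes changed little with transcript length. The share of UMIs from the mitochondrial genome was nearly the same in both inputs.

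Of 17946 genes with a UMI in either library, 8216 reached a mean of 10 CPM over the 2 libraries and were compared. The difference of a gene was the log2 of its mean level in total RNA over that in lysate, with 5 CPM added to each, so that a positive value is higher in total RNA. This understates the change of genes of low level. Past 2-fold, 1282 genes (15.6%) were higher in total RNA and 518 (6.3%) were higher in lysate. The median of all genes was 0.23, so the typical gene already lay above 0. After centring on that median, 844 genes were higher in total RNA and 839 in lysate, which moved the share of called genes that were higher in total RNA from 71.2% to 50.1%. With edgeR's TMM factors 1071 were higher in total RNA and 665 in lysate. Medians and single differences are therefore read below against 0.23. Calls past 2-fold below are still made against 0, so a gene called in neither direction can be past 2-fold after centring.

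For a spread between libraries of 1 kind, the 2 LAST-seq libraries of HEK293T single cells were compared by the same rule, and 805 of 8481 genes (9.49%) were past 2-fold in either direction. Between total RNA and lysate this was 21.9%. The 2 are not fully alike, as the single-cell wells held more UMIs on genes and their labels name different spike-in mixes. Their means were 142487 and 150980 UMIs per well, against 110888 in total RNA and 79805 in lysate. Past 4-fold there were 158 genes higher in total RNA and 72 higher in lysate, against 65 between the single-cell libraries. Past 16-fold there were 6 genes in each of the comparisons. Wells did not overlap for 233 genes (2.84%) higher in total RNA and for 138 genes (1.68%) higher in lysate. As all wells of an input share 1 library, this separation speaks only of the repeatability of the wells.

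**Figure D1:**
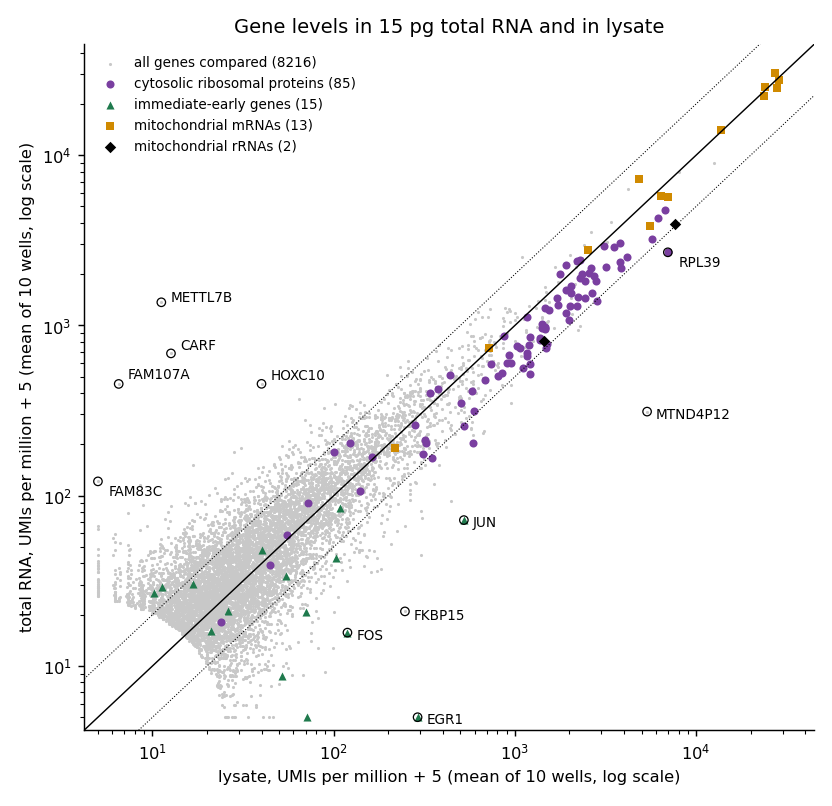
Mean level of 8216 genes in lysate (x axis) and in total RNA (y axis), in CPM plus 5 on log scales; the solid line marks equal levels and the dotted lines 2-fold. Ribosomal protein mRNAs lie mostly below the solid line, EGR1, FOS and JUN lie far below it, and METTL7B, CARF and FAM107A far above it.

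Immediate-early genes are transcribed within minutes of a stimulus to the cell and their mRNAs are short-lived. EGR1 (chr5:138465479-138469303, plus strand, GRCh38), a zinc finger transcription factor, had no UMI in any of the 10 wells of total RNA. In lysate its level was 183 in the lowest well, 270 in the median well and 483 in the highest. With 230 UMIs in lysate and none in total RNA, EGR1 was at least 85.9-fold lower in total RNA by the 95% exact counting limit. FOSB, a partner of JUN in the AP-1 factor, likewise had no UMI in total RNA. It had 15.1, 70.3 and 123 in the lowest, median and highest wells of lysate, and was at least 19.7-fold lower in total RNA by the same limit. FOS (chr14:75278826-75282230, plus strand) had 0, 8.85 and 46.2 in total RNA against 80.0, 110 and 180 in lysate. JUN (chr1:58776845-58784048, minus strand) had 9.02, 61.1 and 111 in total RNA against 411, 520 and 594 in lysate. For all 4 genes the highest well of total RNA lay below the lowest well of lysate. EGR1, FOS and JUN were among genes chosen by a rule that required this. The ratio of lysate to total RNA was 11.5 for FOS (95% exact counting interval 6.13 to 23.8) and 7.75 for JUN (6.04 to 10.1), where the intervals cover counting error only, as all intervals here do.

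These 4 belong to a list of 26 immediate-early genes, of which 15 were compared. In the list 7 genes (46.7%) were past 2-fold higher in lysate and 2 (13.3%) in total RNA, beside 6.3% and 15.6% of all genes. The median was -0.70, which is 0.93 below that of all genes. The other 3 higher in lysate were ATF3 at 3.7 against 46.6 CPM, a factor of the stress response, IER2 at 15.7 against 65.2, and JUND at 38.1 against 98.0. Those higher in total RNA were IER5 at 21.9 against 5.2 and KLF6 at 24.1 against 6.2. The members therefore did not all lie on 1 side, though the share higher in total RNA was no larger than that of all genes.

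The level of these genes also differed among the other HEK293T libraries. EGR1 was at 3.98 and 4.15 CPM in the 2 LAST-seq libraries of single cells, so that total RNA lay closer to single cells than the lysate did. It was at 391 in the lysate profiled by CEL-seq2, and at 380 and 8.10 in the 2 CEL-seq2 libraries of single cells. FOSB was also far apart among them, with 0 and 0 in the LAST-seq cells, 86.2 in the CEL-seq2 lysate, and 283 and 1.83 in the CEL-seq2 cells. Libraries of the same line and assay thus differed in these genes too. In pooled inputs, fewer cells that express a gene and less RNA per cell cannot be told apart.

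The start regions of EGR1, FOS and JUN are given because the genes differed in the same direction. Each runs from 250 bases before to 50 bases after the start in RefSeq, GRCh38.p14, 5′ to 3′ on the gene's strand. Capitals mark matches to the CArG box, the element bound by serum response factor, and to the CRE core TGACG on either strand, which cyclic AMP response factors recognise. The regions are EGR1 at chr5:138465229-138465528, FOS at chr14:75278578-75278877 and JUN at chr1:58783998-58784297.
EGR1: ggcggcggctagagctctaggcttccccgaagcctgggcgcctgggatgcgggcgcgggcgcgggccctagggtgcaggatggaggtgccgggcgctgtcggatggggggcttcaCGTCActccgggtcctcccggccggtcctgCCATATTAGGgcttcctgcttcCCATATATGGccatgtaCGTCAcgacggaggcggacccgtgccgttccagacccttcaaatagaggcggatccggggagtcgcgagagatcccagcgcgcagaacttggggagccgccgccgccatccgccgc
FOS: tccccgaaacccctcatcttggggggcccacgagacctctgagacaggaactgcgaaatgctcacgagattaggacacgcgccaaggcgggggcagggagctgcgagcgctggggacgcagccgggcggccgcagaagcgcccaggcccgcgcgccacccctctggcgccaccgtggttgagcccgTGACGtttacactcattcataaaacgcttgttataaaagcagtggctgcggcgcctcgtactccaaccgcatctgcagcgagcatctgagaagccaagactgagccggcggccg
JUN: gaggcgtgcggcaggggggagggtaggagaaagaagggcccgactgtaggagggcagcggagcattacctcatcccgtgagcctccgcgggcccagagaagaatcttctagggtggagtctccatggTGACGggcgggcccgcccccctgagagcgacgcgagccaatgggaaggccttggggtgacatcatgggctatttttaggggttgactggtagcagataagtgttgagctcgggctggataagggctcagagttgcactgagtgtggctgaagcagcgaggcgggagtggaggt
EGR1 held 2 CArG boxes and 2 CRE cores, and FOS and JUN held 1 CRE core each. Of 34796 start regions of the same length, 1.30% held a CArG box and 24.5% held the CRE core. In the immediate-early list 12 start regions were matched by symbol, and the CArG box was found in 2 of them, EGR1 and SRF, whose difference was 0.26. The CRE core was found in 9 of them, among them SRF and BTG2, which were not lower in total RNA. A match of letters does not show that a factor binds there. Elements more than 250 bases before the start lie outside these regions, so a gene without a match here may still have one.

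**Figure D2:**
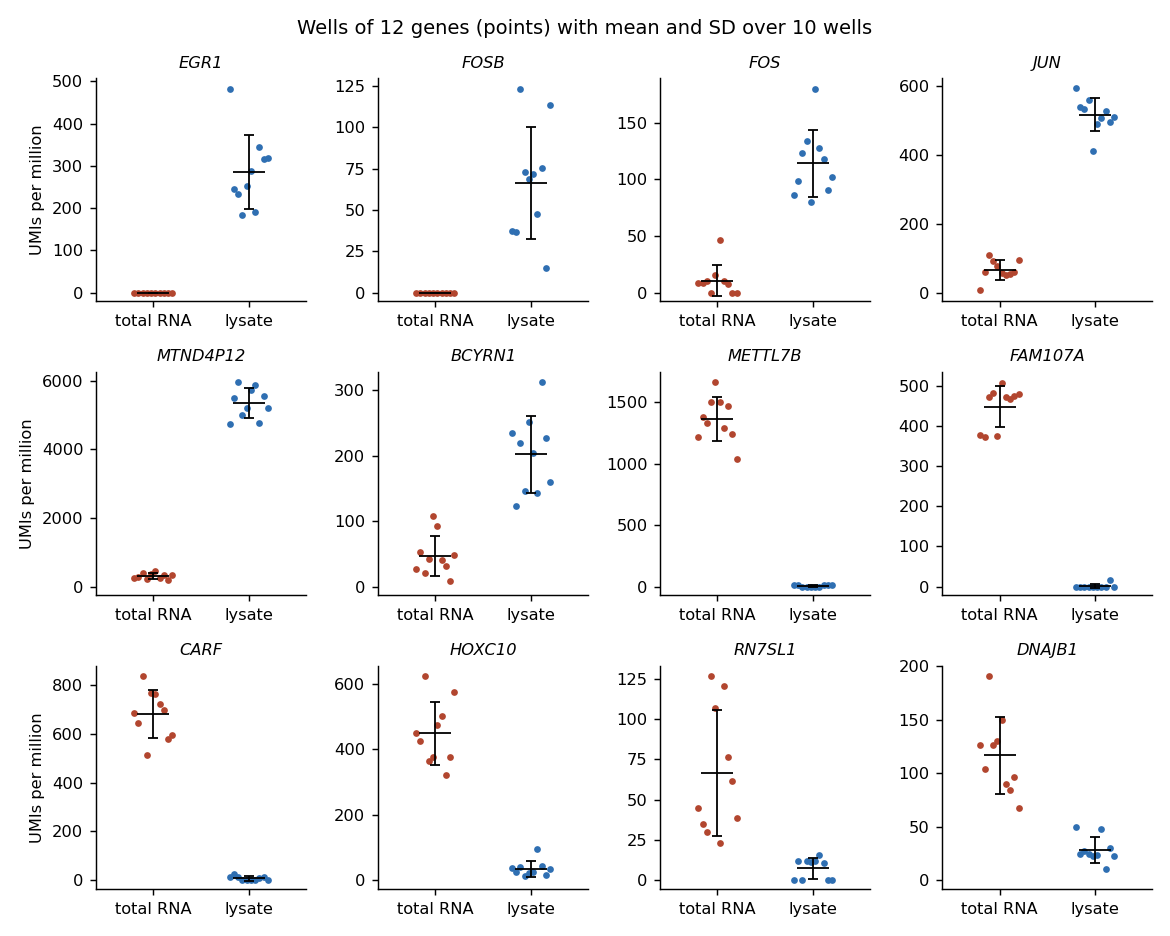
Level in each of the 10 wells of total RNA (red) and of lysate (blue) for 12 genes, in CPM, with the mean and SD over wells as bars. EGR1, FOSB, FOS, JUN, MTND4P12 and BCYRN1 are higher in every lysate well than in any total RNA well, and the other 6 genes are higher in every total RNA well. For EGR1, FOS, JUN, MTND4P12, METTL7B, FAM107A, CARF and HOXC10 the rule that chose them required this.

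Cytosolic ribosomal protein mRNAs, short and abundant messages that code for the proteins of the ribosome, took 10.1% ± 0.27 of UMIs in total RNA and 14.5% ± 0.26 in lysate (SD over 10 wells each, 1 library each). The wells did not overlap. Of 85 genes compared, 8 were past 2-fold higher in lysate and none was higher in total RNA, and the median was -0.51. The 8 make 9.41%, near the 6.3% of all genes, so the list stood out by its median rather than by genes past 2-fold. The wells of 39 (45.9%, against 1.68% of all genes) did not overlap, all in the direction of lysate. The largest difference was that of RPL23A, a protein of the large subunit, at 198 ± 52 against 580 ± 84 CPM. RPL39, a short protein of the large subunit, had 2505, 2657 and 2980 in the lowest, median and highest wells of total RNA against 6591, 6793 and 8252 in lysate. RPS15A, of the small subunit, was at 514 ± 108 against 1205 ± 125. Single cells lay between the inputs, with 11.8% and 12.1% of UMIs in the 2 libraries. The 3 members above 0.30, RPS19BP1, RPS27L and RPL7L1, match the list by name and are not core proteins of the cytosolic ribosome. The list also holds the paralogues RPL39L, at 252 against 518 and among the 8 higher in lysate, and RPL22L1, RPL26L1 and RPL3L, at -0.47, -0.39 and -0.40.

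Processed pseudogenes, copies of mRNAs pasted back into the genome, share reads with their parent genes, so their counts and those of the parents are uncertain. Among 565 of them, 132 (23.4%) were past 2-fold higher in lysate and 10 (1.77%) in total RNA, with a median of -0.55. For all genes the shares were 6.3% and 15.6%. The 311 pseudogenes of ribosomal proteins had a median of -0.65 and took 3.58% of UMIs in total RNA against 5.68% in lysate, which is the direction of their parents. EIF5 and its copy EIF5P1 went the other way together. EIF5, a factor of translation start, was at 339 ± 55 against 97.1 ± 27.2, and EIF5P1 at 58.3 ± 31.6 against 3.55 ± 8.18.

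Other messages of the translation apparatus lay closer to the median of all genes, except the hosts of small nucleolar RNAs. Translation factors had a median of 0.10 over 50 genes. Past 2-fold were 3 (6%) higher in total RNA and 1 (2%) in lysate, beside 15.6% and 6.3% of all genes. Nuclear-encoded proteins of the mitochondrial ribosome had a median of 0.31 over 71 genes, 5 (7.04%) higher in total RNA and 1 (1.41%) in lysate. These hosts, whose spliced transcripts also carry the start sequence typical of ribosomal protein genes, had a median of -0.38 over 18 genes with none past 2-fold. SNHG5 was at 383 ± 50.5 in total RNA against 678 ± 98 in lysate.

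**Figure D3:**
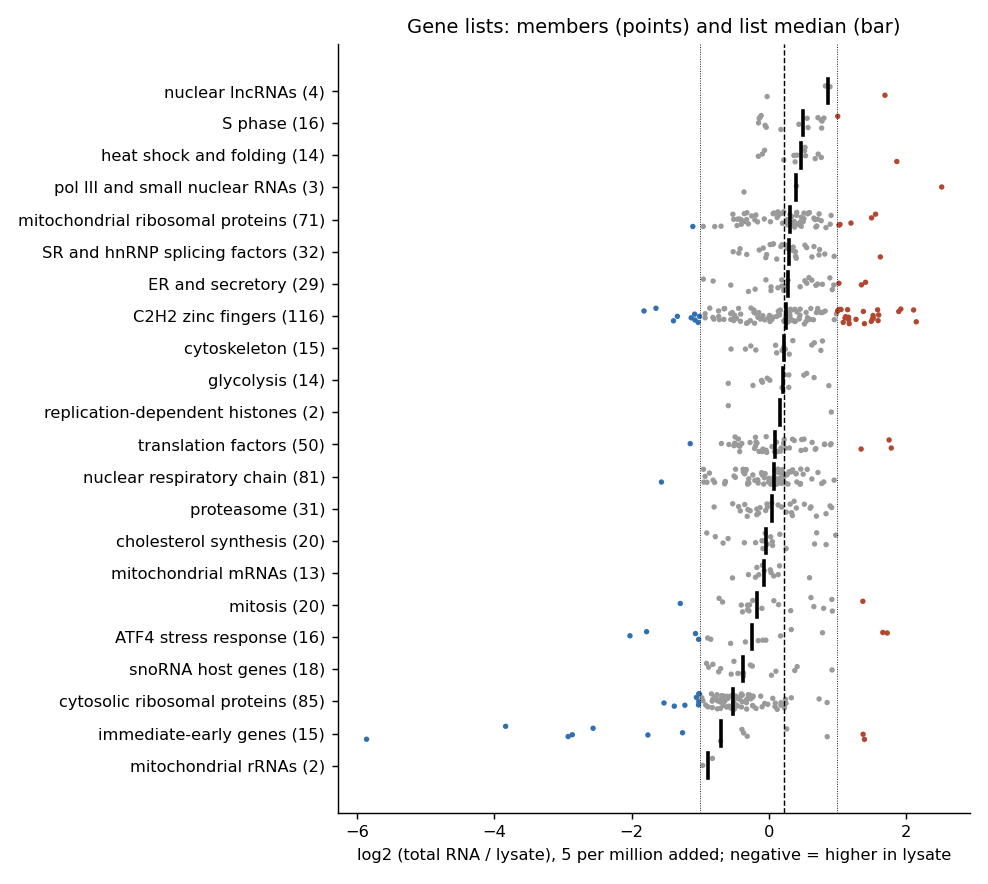
Log2 of total RNA over lysate for the members of 22 gene lists (points; red, past 2-fold higher in total RNA; blue, past 2-fold higher in lysate) with the list median (black bar) and the number of genes compared in brackets. The dashed line is the median of all genes, 0.23, and the medians of mitochondrial rRNAs, immediate-early genes and cytosolic ribosomal proteins lie farthest to its left.

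The mitochondrial genome codes for 13 mRNAs, 2 rRNAs and 22 tRNAs, which are cut from long transcripts of both strands. Its genes took 18.7% ± 0.44 of UMIs in total RNA and 19.2% ± 0.53 in lysate, and the wells overlapped. Over the summed UMIs the shares were 18.7% (exact binomial interval 18.6% to 18.7%) and 19.2% (19.1% to 19.2%). Within the 10 shared barcodes the share was lower in total RNA in 9, by a median of -0.37 percentage points (range -1.19 to 0.10). Single cells had 16.8% and 14.4% by LAST-seq, and lysate by CEL-seq2 had 14.5%. Both inputs thus lay above single cells of the same assay.

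Within the mitochondrial genome the parts differed more than the whole. The rRNAs took 0.475% ± 0.022 of UMIs in total RNA and 0.912% ± 0.039 in lysate. MT-RNR2, the large rRNA, had 3615, 3957 and 4337 CPM in the lowest, median and highest wells of total RNA, against 7287, 7653 and 8329 in lysate. MT-RNR1, the small rRNA, had 739, 801 and 919 against 960, 1452 and 1672. The wells did not overlap for either. None of the 13 mRNAs was past 2-fold. MT-CO1, the catalytic subunit of cytochrome oxidase, was at 7274 ± 525 in total RNA against 4819 ± 331 in lysate. MT-ND2, a subunit of complex I, was at 3849 ± 218 against 5557 ± 291, the largest difference among the mRNAs in the direction of lysate.

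Among 19 mitochondrial tRNA genes compared, 6 (31.6%, beside 6.3% of all genes) were past 2-fold higher in lysate and none in total RNA. The summed share of all mitochondrial tRNA genes nevertheless lay on the other side, at 1.17% ± 0.073 of UMIs in total RNA against 1.01% ± 0.052 in lysate, with wells that overlapped and 10 of 10 barcodes higher in total RNA. Most of this sum came from MT-TS1 and MT-TE, given below. The other tRNA genes together lay on the side of lysate. MT-TF, the tRNA for phenylalanine at the head of the rRNA region, was at 87.7 ± 32.1 against 441 ± 73. The neighbours MT-TA, MT-TN, MT-TC and MT-TY, annotated on the opposite strand between MT-ND2 and MT-CO1, had differences of -1.36, -1.78, -1.85 and -1.90. MT-TP had -1.29. MT-TS1, annotated on the strand opposite to MT-CO1 and directly after it, was at 6293 ± 515 against 4215 ± 270 and had nearly the difference of MT-CO1, 0.58 beside 0.59. MT-TE, annotated beside MT-CYB, was at 4052 ± 298 against 3379 ± 162, and its wells did not overlap. The strand setting of the counting is not given in the sources used here, so that reads of a tRNA gene and of RNA from the other strand or from an uncut neighbour cannot be told apart.

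**Figure D4:**
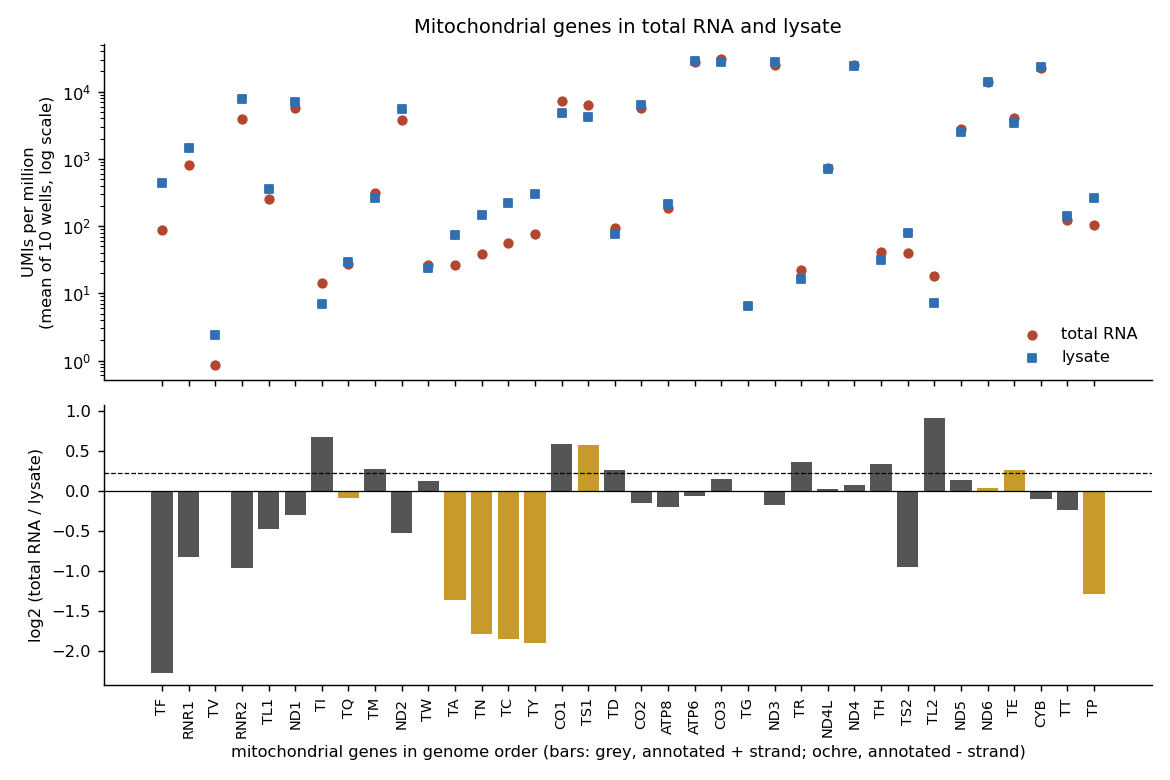
Mitochondrial genes in genome order, with the mean level in total RNA (red) and lysate (blue) above, on a log scale in CPM, and the log2 of total RNA over lysate below. MT-TG, with no UMI in total RNA, has no red point, and genes under the mean of 10 CPM have no bar. MT-TF and the run from MT-TA to MT-TY have the lowest bars, and MT-CO1 and MT-TS1 have bars of nearly the same height.

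MT-ND4 has a nuclear copy, MTND4P12 (chr5:134926660-134928036, minus strand, a processed pseudogene), to which reads of the mitochondrial gene can be assigned. MT-ND4 itself, a subunit of complex I, was at 25095 ± 1621 in total RNA and 23865 ± 1862 in lysate. MTND4P12 was at 307 ± 79 against 5360 ± 437, a log2 of -4.10. The wells did not overlap, which the rule that chose this gene required. It took 1.199% of the UMIs of the pair in total RNA (0.837% to 1.52% over wells) and 18.3% in lysate (17.0% to 19.4%). The sum of the pair was 25402 in total RNA and 29225 in lysate, so that with the copy included the difference lay on the side of lysate. The 2 LAST-seq libraries of single cells showed a similar gap between them, with 16.6% and 1.502%. By their labels the first of these held the A60 mix, as the lysate did, and the second the ERCC mix. In the CEL-seq2 cells labelled with the ERCC mix alone the share was 28.7%. The difference thus also occurs within 1 kind of input, where spike-in mix and library cannot be told apart.

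The sequences are given to show how few bases separate the pair. In GENCODE they agreed at 95.7% of 1377 aligned bases, with 59 differences. The last 120 aligned bases, with differing bases in capitals, are chrM:12017-12136 on the plus strand for MT-ND4 and chr5:134926660-134926779 on the minus strand for MTND4P12.
MT-ND4: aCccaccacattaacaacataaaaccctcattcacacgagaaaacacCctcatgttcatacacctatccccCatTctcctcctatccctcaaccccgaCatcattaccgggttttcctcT
MTND4P12: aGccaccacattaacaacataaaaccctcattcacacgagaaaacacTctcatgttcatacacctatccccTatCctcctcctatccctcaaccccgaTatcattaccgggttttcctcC
This stretch held 6 differences. Reads that lie between differing bases fit both copies.

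Nuclear copies of mitochondrial genes took 7.21% of UMIs in total RNA and 9.08% in lysate. Together with the mitochondrial genome this made 25.9% ± 0.68 and 28.2% ± 0.77, with wells that overlapped.

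By gene type, nuclear protein-coding genes took 65.9% ± 0.45 of UMIs in total RNA and 60.5% ± 0.49 in lysate, without overlap of wells, and 68.5% and 71.7% in single cells by LAST-seq. Pseudogenes took 6.49% ± 0.37 and 9.45% ± 0.46. LncRNAs took 1.45% ± 0.057 and 1.40% ± 0.075, where the wells overlapped. Single-exon protein-coding genes took 0.769% and 0.677%, and multi-exon ones 65.1% and 59.9%. Replication-dependent histones, whose mRNAs end in a stem-loop in place of a poly-A tail, took 0.00691% and 0.00607%, and only 2 of 69 could be compared, neither past 2-fold.

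Genes annotated as small RNAs took 0.0688% of UMIs in total RNA and 0.0722% in lysate, with wells that overlapped, but single RNAs differed. RN7SL1, the RNA of the signal recognition particle, was at 66.4 ± 39.1 against 7.46 ± 6.56. As many near-identical copies of it share reads, the 7SL family was also summed. It held 331 UMIs in total RNA and 73 in lysate over 52 genes, a ratio of 3.26 (counting interval 2.53 to 4.26), with 162, 268 and 521 CPM in the lowest, median and highest wells of total RNA and 49.5, 83.1 and 195 in lysate. The family's wells overlapped, and 1 copy, RN7SL602P, went the other way at 23.3 against 68.8. BCYRN1, a brain cytoplasmic RNA of RNA polymerase III, was at 46.9 ± 31.0 against 202 ± 59, and its wells did not overlap.

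Of 10 lncRNAs listed as nuclear, 4 were compared. NEAT1 was at 73.8 ± 29.9 against 39.5 ± 21.99 and MALAT1 at 46.6 ± 20.6 against 22.8 ± 16.4, neither past 2-fold, and PVT1 was at 18.6 against 2.31. OIP5-AS1, the fourth, was at 88.8 against 90.4. Of 1809 annotated RNA polymerase III and small nuclear RNAs 3 were compared, with a median of 0.40 and RN7SL1 as the only member past 2-fold.

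The genes most in favour of total RNA were nearly absent from lysate. METTL7B (chr12:55681736-55684611, plus strand), a methyltransferase-like protein of the endoplasmic reticulum, had 1037, 1354 and 1662 CPM in the lowest, median and highest wells of total RNA, and 0, 5.38 and 15.1 in lysate. FAM107A (chr3:58564117-58627610, minus strand), an actin-associated protein, had 373, 472 and 508 against 0, 0 and 15.1, which in lysate was a single UMI. CARF (chr2:202912214-202988263, plus strand), a calcium-responsive transcription factor, had 515, 692 and 835 against 0, 5.38 and 24.5. FAM83C had 131 UMIs in total RNA and none in lysate, and was at least 31.4-fold higher. Every total RNA well lay above every lysate well for these genes, which the rule that chose them required.

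Other libraries of the line did not sort these genes by input. METTL7B was at 4.95 and 10.7 CPM in the LAST-seq single cells and at 0 in the CEL-seq2 lysate, so that total RNA stood apart from all of them. CARF was at 628 and 598 in the LAST-seq single cells and at 0, 2.87 and 3.97 in the CEL-seq2 libraries of lysate and cells. Here the LAST-seq lysate stood apart from the other LAST-seq libraries. FAM107A was at 0 in the LAST-seq single cells labelled with the A60 mix and at 179 in those labelled with the ERCC mix.

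The next genes by size were SMARCA1, an ATPase of chromatin remodelling, at 111 ± 16 against 3.58 ± 8.15, and HOXC10, a homeobox factor, at 449 ± 97 against 35.0 ± 23.7. PICK1, a PDZ-domain scaffold, was at 146 ± 27 against 11.6 ± 13.98. POLE4, a subunit of DNA polymerase epsilon, was at 176 ± 42 against 23.0 ± 18.1. KNSTRN, a protein of the spindle and kinetochore, was at 185 ± 28 against 25.7 ± 14.2, and CLU, a secreted chaperone, at 366 ± 76.5 against 59.3 ± 25.3. These were taken from 114 genes with a mean of at least 50 CPM that were past 2-fold higher in total RNA with wells that did not overlap. The same filter gave 54 genes in favour of lysate. Beside the genes above they were led by FKBP15, at 15.9 ± 11.8 against 242 ± 75, and ELAVL3, a neuronal RNA-binding protein, at 7.73 ± 7.77 against 94.6 ± 38.1. FKBP15 was at 8.15 and 36.5 in the LAST-seq single cells, so that here the lysate stood apart. LINC02746, a lncRNA, was at 31.9 ± 13.4 against 178 ± 59.

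In the ATF4 stress response 4 of 16 genes (25%) were past 2-fold higher in lysate and 2 (12.5%) in total RNA. For all genes the shares were 6.3% and 15.6%. DDIT3, the CHOP factor, was at 5.27 against 36.7, and SLC7A11, the cystine transporter, at 5.22 against 30.1. ATF5 was at 169 ± 46 against 49.9 ± 29.1 and TRIB3 at 18.9 against 2.21. ATF4 itself was at 510 against 648. The members therefore lay on both sides, though the share higher in total RNA was no larger than that of all genes.

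Heat shock and folding genes had a median of 0.46 over 14 genes. DNAJB1, a co-chaperone, was the only 1 past 2-fold (7.14%, below the 15.6% of all genes), at 117 ± 36 against 28.4 ± 11.8. S phase genes had a median of 0.50 over 16. Their only member past 2-fold (6.25%) was MCM5, a subunit of the replicative helicase, at 118 ± 37 against 56.3 ± 26.7. Mitosis genes had a median of -0.17 over 20, with 1 member (5%) past 2-fold each way, beside 15.6% and 6.3% of all genes. These were KIF11, a spindle motor, at 94.1 against 33.3 and BUB1B, a checkpoint kinase, at 31.9 against 85.1.

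C2H2 zinc finger genes had 25 members higher in total RNA and 9 higher in lysate of 116, which is 21.6% and 7.76% beside 15.6% and 6.3% of all genes, and their median was 0.24 beside 0.23. Genes of the endoplasmic reticulum and secretory path had 3 of 29 higher in total RNA, SPCS3, PDIA4 and SEC61A1, and none in lysate, with a median of 0.28. These 3 make 10.3%, below the 15.6% of all genes, and SEC61A1 fell below 2-fold under some alternatives. SR and hnRNP splicing factors had a median of 0.30 over 32. SRSF8, at 74.9 against 20.9, was the only member past 2-fold (3.1%, below the 15.6% of all genes).

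No list of energy or structural genes had more than 1 member past 2-fold. Nuclear respiratory chain genes had a median of 0.08 over 81. NDUFB3, a subunit of complex I, was the only member past 2-fold, at 41.8 ± 20.6 against 134 ± 34. It made 1.23% of the list, below the 6.3% of all genes higher in lysate. No member was past 2-fold among 14 genes of glycolysis, 15 of the cytoskeleton, 20 of cholesterol synthesis and 31 of the proteasome, with medians of 0.21, 0.22, -0.04 and 0.04. ENO1, a glycolytic enzyme, was at 2946 ± 200 against 2407 ± 283. ACTG1, a cytoplasmic actin, was at 1108 ± 228 against 1404 ± 96. GAPDH and ACTB, which are often used as references, were at 108 ± 34 against 165 ± 57 and at 214 ± 40 against 200 ± 49.

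The base composition of the mRNA went with the difference. Over 7266 nuclear protein-coding genes, split into quintiles by the GC content of 1 transcript per gene, the median difference was 0.13, 0.17, 0.23, 0.36 and 0.59 from the lowest to the highest quintile. In the highest quintile 28.1% of genes were past 2-fold higher in total RNA and 1.93% were higher in lysate, against 11.3% and 6.396% in the lowest. Spearman's rho was 0.22 across these genes, which share the 2 libraries and are not independent. Within quintiles of level the highest minus the lowest GC quintile was 0.43 to 0.49, and within quintiles of length 0.38 to 0.67, so the trend was seen at every level and length.

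Relative to the mean of the LAST-seq single cells, total RNA carried most of this trend. The median of total RNA over cells went from -0.25 in the lowest GC quintile to 0.33 in the highest, while that of lysate over cells went from -0.36 to -0.26. Between the 2 single-cell libraries the same correlation was 0.02. The mean GC content of the protein-coding transcripts, weighted by UMIs, was 48.9% to 49.3% over wells of total RNA and 48.0% to 48.3% over wells of lysate. The wells did not overlap. Extraction and library cannot be told apart here.

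Gene by gene, length, A runs and exons mattered less. The median difference was 0.21 in the shortest quintile of transcripts and 0.29 in the longest, with 0.31 to 0.34 between. It was 0.43 where the longest run of A was shortest and 0.24 where it was longest, with a rho of -0.09. Over quintiles of exon number it stayed between 0.27 and 0.34. Over quintiles of level it was 0.22 in the highest and 0.30 to 0.33 in the others. Mean transcript length weighted by UMIs did differ, at 2907 to 2975 bases over wells of total RNA and 2693 to 2758 over wells of lysate. The wells did not overlap.

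**Figure D5:**
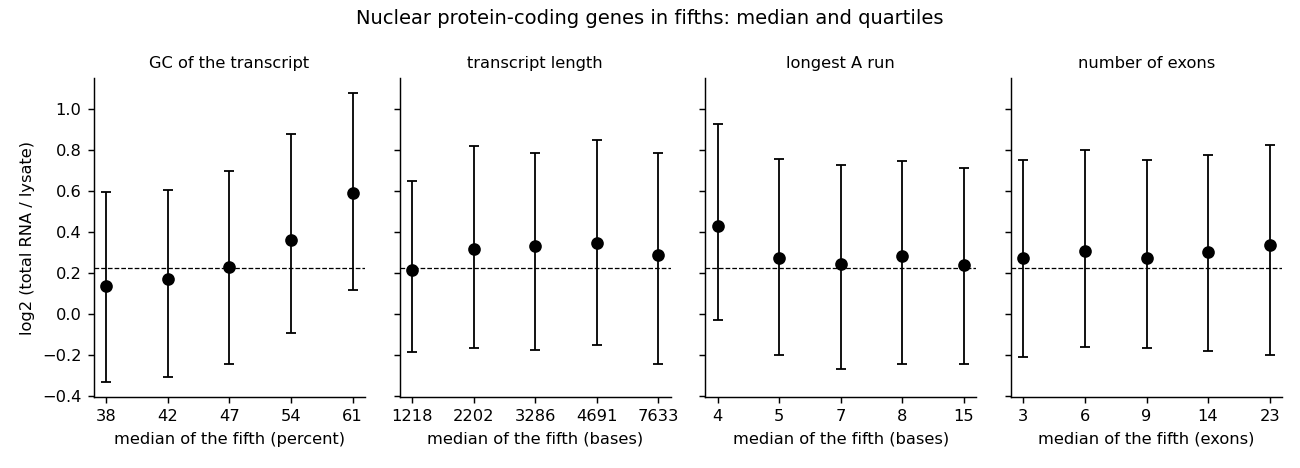
Median log2 of total RNA over lysate with its quartiles for 7266 nuclear protein-coding genes in quintiles of GC content, length, longest A run and number of exons, with the median of each quintile on the x axis; equal values were split by their order. The medians climb from 0.13 to 0.59 with GC content and stay between 0.21 and 0.43 in the other panels.

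More genes were seen in wells of total RNA. At 62816 UMIs per well, the lowest total, to which every well was thinned, total RNA had 8432 ± 64 genes with a UMI and lysate had 7753 ± 87. The wells did not overlap. As deposited, the values were 10094 ± 357 and 8448 ± 353. With a UMI in all 10 thinned wells there were 3474 genes in total RNA and 2901 in lysate.

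The spread over wells was close to that of counting in both inputs. For 1398 genes with a thinned mean of at least 5 UMIs in both libraries, the median coefficient of variation over wells was 0.270 in total RNA and 0.292 in lysate. Relative to the Poisson expectation at each gene's mean, the median was 1.01 and 1.03. Mitochondrial genes, which have the most UMIs, had medians of 1.11 and 1.204.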

How the data were processed

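UMI counts per gene and well were taken as deposited. The authors made them with bcl2fastq 2.20 per the submitters' processing notes, and with cutadapt and zUMIs, aligning to GRCh38 with GENCODE and spike-in sequences, subsampling reads to an equal depth, keeping reads in exons and collapsing UMIs by identity. The subsampled depth is not given in the sources used here.

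Spike-in rows were removed, wells were scaled to 1000000 UMIs (counts per 1000000, CPM), and genes with a mean of at least 10 CPM over both libraries were kept. The log2 of the mean values plus 5 CPM was used without a test, as each input is 1 library, and called past 2-fold. Genes were annotated from GENCODE 44 (GRCh38), which matched all but 62 of 17946 gene IDs. Totals of 62816 to 130568 UMIs per well make 10 CPM about 1 UMI per well. Named genes had a mean of at least 50 CPM, were past 2-fold and had wells that did not overlap (the 10 largest each way), or were mitochondrial mRNAs or rRNAs, up to 4 members of each list by size, or the 3 largest lncRNAs and pseudogenes each way. The small RNAs, mitochondrial tRNAs, NEAT1, MALAT1, GAPDH and ACTB, and list members given beside these, were named after their values were seen. The comparison, members and lists were chosen with earlier results of these data known. Alternatives used edgeR 4.0.16 and DESeq2 1.42.0 for scaling only. Calculations used Python 3.11.15 and were tested on simulated data. A few items are not reported here.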

Additional observations from a re-analysis of the deposited data

Results flagged for a closer look

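Dixon's ratio was computed over the 10 wells of each library for shares of UMIs and for named genes with a median of at least 5 UMIs per well. It passed the 95% critical value in 20 of 168 sets of wells, where chance flags about 1 in 20, and several of the sets share UMIs.

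In total RNA 1 well, well 3, held most of them. Its mitochondrial share was 19.8%, against 18.3% to 18.8% in the other wells, and that of mitochondrial mRNAs was 18.2% (others 16.6% to 17.2%). With nuclear copies the share was 27.7%, and the 10 genes of most UMIs took 23.2%. Its share of pseudogenes was 5.58% (others 6.39% to 6.95%) and that of ribosomal protein pseudogenes 3.05%. It had 28307 CPM for MT-ND3, 25128 for MT-CYB and 3190 for MT-ND5. The lysate well of the same barcode had 30788 for MT-ATP6, 8252 for RPL39, 960 for MT-RNR1 and a ribosomal protein share of 13.9%. Leaving out each well in turn kept the difference in mitochondrial share between -0.62 and -0.40 percentage points.

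Elsewhere in total RNA single wells stood apart with 29198 CPM for MT-ND4, 355 for PSMA4, 141 for SEC61A1 and 281 for SQLE. In lysate single wells stood apart with 195 for the 7SL family, 183 for ELAVL3 and 12573 for MT-ND6.

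The total RNA library, whose label names no spike-in mix, held 32330 UMIs on 69 spike-in transcripts, 2.83% of UMIs per well, of which 16.5% were on the transcripts of the A60 mix. As these are named after members of the ERCC mix, UMIs on them can come from either mix. Their share was 20.3% in the LAST-seq cells labelled with the ERCC mix and 99.9% in those labelled with A60. Spike-in transcripts with a UMI numbered 75 and 48 in these. The total RNA library thus resembled the cells labelled with the ERCC mix, though its own label names none. The lysate held 1007 on 30 transcripts, 98.1% of them of the A60 mix.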

How the results depend on the processing

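The counts past 2-fold stayed within 1.5 times under the DESeq2 and TMM scalings, without mitochondrial genes in the total, with 1 CPM added, with UMIs summed over wells and with wells thinned. They became 2055 higher in total RNA and 930 in lysate with no minimum, 279 and 122 at a minimum of 50 CPM, 2567 and 1211 at 1.5-fold, and 844 and 839 after centring on the median of all genes, the last chosen after seeing the data. The median of all genes was 0.13 with DESeq2 size factors and 0.12 with TMM factors, against 0.23.

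The highest minus the lowest GC quintile, 0.46, was 0.29 with no minimum and 0.45 to 0.51 otherwise. The longest minus the shortest quintile, 0.08, was 0.018 with no minimum and 0.20 at a minimum of 50 CPM. The difference of 679 genes detected at equal UMIs was 1647 in wells as deposited. That in median coefficient of variation, -0.022, was -0.059 at a mean of at least 1 UMI and -0.052 in wells as deposited and scaled. The cause was not tested.

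No named gene past 2-fold changed sign under any alternative. Relative to the median of all genes, 6 of 23 lists changed sign under some alternative other than leaving out a well, among them glycolysis, cytoskeleton, C2H2 zinc fingers and mitochondrial ribosomal proteins. Leave-one-out over the wells gave 1271 to 1319 genes higher in total RNA and 500 to 537 in lysate, 665 to 696 for detection, -0.029 to -0.017 for the coefficient of variation, 0.43 to 0.48 for GC and 0.052 to 0.091 for length. It gave differences in share of 5.24 to 5.42 points for protein-coding genes, -0.62 to -0.40 for mitochondrial genes and 0.043 to 0.072 for lncRNAs. KIF11, MCM5 and SEC61A1 fell below 2-fold under an alternative, and EIF4G3, MCM5, MRPL45, RPS25 and SEC61A1 without some well. No paired test was made, as each input is 1 library and its wells are not replicates of the input. Wells share barcodes, and within barcodes, an alternative chosen after seeing the data, the median difference was 5.25 points for protein-coding genes (10 of 10 barcodes higher in total RNA) and -0.37 for mitochondrial genes (9 of 10 lower). A gene at 10 CPM has about 1 UMI per well, so a low gene's difference rests on few molecules.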

Other observations

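Targets of the p53 protein, a list written after some of its members had been seen among the genes in favour of total RNA, were also compared, and the count is a description only. HEK293T carries the large T antigen, which binds p53. Of 26 targets 23 were compared, 9 (39.1%, beside 15.6% of all genes) were past 2-fold higher in total RNA and 1 was higher in lysate, with a median of 0.87. MDM2, the ubiquitin ligase of p53, had 48.0, 114 and 168 CPM in the lowest, median and highest wells of total RNA against 12.2, 18.7 and 48.0 in lysate. BAX, a protein that opens mitochondria in apoptosis, was at 114 against 25.7, AEN, a nuclease, at 110 against 24.3, and CDKN1A, the cell cycle inhibitor p21, at 100 against 35.6. FAS, a death receptor, had 26 UMIs in total RNA and none in lysate. PMAIP1, which also promotes apoptosis, went the other way at 23.0 against 81.9. The summed level of the list was 1207 CPM in total RNA and 629 in lysate, against 595 and 708 in the LAST-seq single cells and 525 in the CEL-seq2 lysate, so that total RNA lay above all 4.

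Some shares followed the barcode in both inputs. Well 3 had the highest mitochondrial share in both, 19.8% in total RNA and 19.997% in lysate, and the lowest shares of pseudogenes, 5.58% and 8.49%, and of ribosomal protein mRNAs, 9.61% and 13.9%. In both LAST-seq libraries of single cells the well of this barcode also had the lowest share of pseudogenes, 5.03% and 6.12%. Its mitochondrial share was the highest, and its ribosomal protein share the lowest, in the first of these libraries only. Gene by gene, where counting error is large, such a pattern was weak. Over 2696 genes with a mean of at least 50 CPM, the deviations of a total RNA well and the lysate well of the same barcode from their library means correlated by 0.02 in the median, against 0.00 for wells of other barcodes.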
